A study of Mus musculus with 32 samples.

Results

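Liver RNA-Seq libraries of female WT mice fed chow containing SC-435 were compared with those of female WT mice fed chow alone, 4 mice a side, which is 8 of the 32 libraries of the series. The members were chosen by the sample labels only, and every gene with enough reads was tested, 15739 of the 54532 genes in the table. SC-435 is an inhibitor of the ileal bile acid transporter (IBATi) and made up 0.006% of the diet, about 11 mg/kg/day. The labels start this diet 3 weeks after weaning and the study's text starts it at weaning, so the length of treatment is not settled here. All 8 mice were C57BL/6 females without the *Cyp2c70* deletion carried by the KO mice of the study, and livers were taken at 12 weeks of age from animals that had not been fasted. RNA came from flash frozen liver lobes with no sorting of cells, so it can hold that of any cell type of the organ. In such bulk RNA, fewer cells of a type and less RNA per cell cannot be told apart. The labels give 1 mouse per library, and 1 inhibitor at 1 dose and 1 age was examined.

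Bile acids (BAs) are made from cholesterol in hepatocytes, conjugated mainly to taurine in mice, secreted into bile and taken back up in the ileum by the ileal BA transporter (IBAT). BAs returning from the gut act on the nuclear receptor FXR in ileum and liver. Ileal FXR raises the hormone FGF15, which signals through the hepatocyte receptor pair FGFR4 and beta-Klotho, while hepatic FXR raises SHP, and both routes lower transcription of the synthetic enzymes. SREBP2 is the transcription factor that raises cholesterol synthesis and uptake when sterols in the endoplasmic reticulum run low.

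The reads assigned to genes came to between 39729292 and 44268442 in each mouse, and the 8 TMM factors, edgeR's scaling between libraries, lay between 0.975 and 1.033. The mean correlation of a library with the others of its group ranged from 0.981 to 0.987. At an adjusted p under 0.05 (edgeR, quasi-likelihood, adjusted by Benjamini-Hochberg for 15739 genes), 378 genes were higher with SC-435, 2.40% of those tested, and 296 were lower, 1.88%. With a log2 fold change beyond 1 as well, 108 genes were higher (0.686%) and 65 lower (0.413%), of which 89 and 53 were protein-coding. Over all genes the median log2 fold change was -0.0035. The counts moved with single libraries. The 378 and 296 became 95 and 64 without SC-435 replicate 4, 134 and 100 without SC-435 replicate 3, 166 and 122 without SC-435 replicate 2, and 231 and 182 without SC-435 replicate 1. They were 157 and 116 without chow replicate 2, 192 and 132 without chow replicate 3, 295 and 282 without chow replicate 4, and 454 and 320 without chow replicate 1. Past both thresholds there were 47 and 21 genes without SC-435 replicate 4, 60 and 31 without SC-435 replicate 3, 67 and 33 without SC-435 replicate 2, 63 and 37 without chow replicate 2, and 83 and 43 without chow replicate 3. Of the 82 genes chosen by the naming rule that passed, 33 did so without each library in turn. Below, a gene is said to have risen or fallen where its adjusted p was under 0.05 with all 8 libraries. The shares over all genes, 2.40% higher and 1.88% lower, are the background for each list count below at the adjusted p of edgeR. For list counts at an unadjusted p under 0.05 the background is 3114 of the 15739 genes. With DESeq2, 761 genes were higher and 659 lower at the adjusted p, and with voom 656 and 545, the background for counts by those methods. A list with 1 or 2 calls is not read as a change of the list. Levels are in CPM, read counts put on one library scale by the TMM factors.

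*Cyp7a1* and *Cyp8b1*, which set the rate and the product of BA synthesis, were among the genes that rose most, while most other genes of the pathway did not pass. Of 17 genes for ring and side-chain steps that could be tested, 4 rose (*Cyp7a1*, *Cyp8b1*, *Akr1d1* and *Cyp27a1*) and 0 fell, and the median log2 fold change of the 17 was 0.11. *Cyp7a1* encodes cholesterol 7alpha-hydroxylase, the rate-limiting enzyme of the classic pathway. Its level was 69.7, 52.1, 67.8 and 14.2 CPM in the 4 mice on chow and 1176, 1272, 640.1 and 872 CPM in the 4 mice on SC-435. Every treated mouse lay far above every control, and the lowest treated value was over 9 times the highest control value. The means were 51.0 ± 25.7 and 990.1 ± 289 CPM (SD, n = 4 each), a 19.4-fold difference of means and a log2 fold change of 4.28 (SE, the standard error of that estimate, 0.47, adjusted p = 0.00291). A two-sided exact permutation test of the difference of means, 939 CPM, gave p = 0.0286, the smallest that 4 against 4 mice allow.

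*Cyp8b1*, the sterol 12alpha-hydroxylase that directs synthesis to cholic acid, stood at 293, 287, 179 and 93.2 CPM on chow and at 987, 1156, 1254 and 1213 CPM on SC-435. The groups did not overlap, and the treated mice varied less in proportion than the controls (213 ± 95.5 against 1152 ± 117 CPM, SD, n = 4 each). Its log2 fold change was 2.43 (SE 0.31, adjusted p = 0.00581). *Akr1d1*, the 5beta-reductase that gives the steroid nucleus its bent shape, rose from 246 ± 20.2 to 370.5 ± 29.0 CPM (log2 fold change 0.59, SE 0.09, adjusted p = 0.0108). *Cyp27a1*, the mitochondrial enzyme that oxidizes the side chain and opens the acidic pathway, rose from 614 ± 70.4 to 859.9 ± 63.4 CPM (log2 fold change 0.49, SE 0.10, adjusted p = 0.0304). *Cyp7b1*, the oxysterol 7alpha-hydroxylase of the acidic pathway, was at 46.1 ± 25.6 and 45.1 ± 7.58 CPM (log2 fold change -0.03, adjusted p = 0.973). *Hsd3b7*, the dehydrogenase of the step after *Cyp7a1*, was at 0.790 ± 0.0806 and 1.03 ± 0.489 CPM (log2 fold change 0.38, SE 0.31, adjusted p = 0.538). Divided by gene length, the mean level of *Cyp7a1* went from 12.2 to 237 CPM per kb and that of *Cyp8b1* from 109 to 591 CPM per kb. On the same scale *Cyp27a1* went from 282 to 396 CPM per kb and *Cyp7b1* from 21.3 to 20.8 CPM per kb. *Cyp7a1*, *Cyp8b1* and *Akr1d1* kept an adjusted p under 0.05 without each library in turn, whereas *Cyp27a1* did so in 2 of the 8 cases (highest adjusted p 0.0953).

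**Figure D1:**
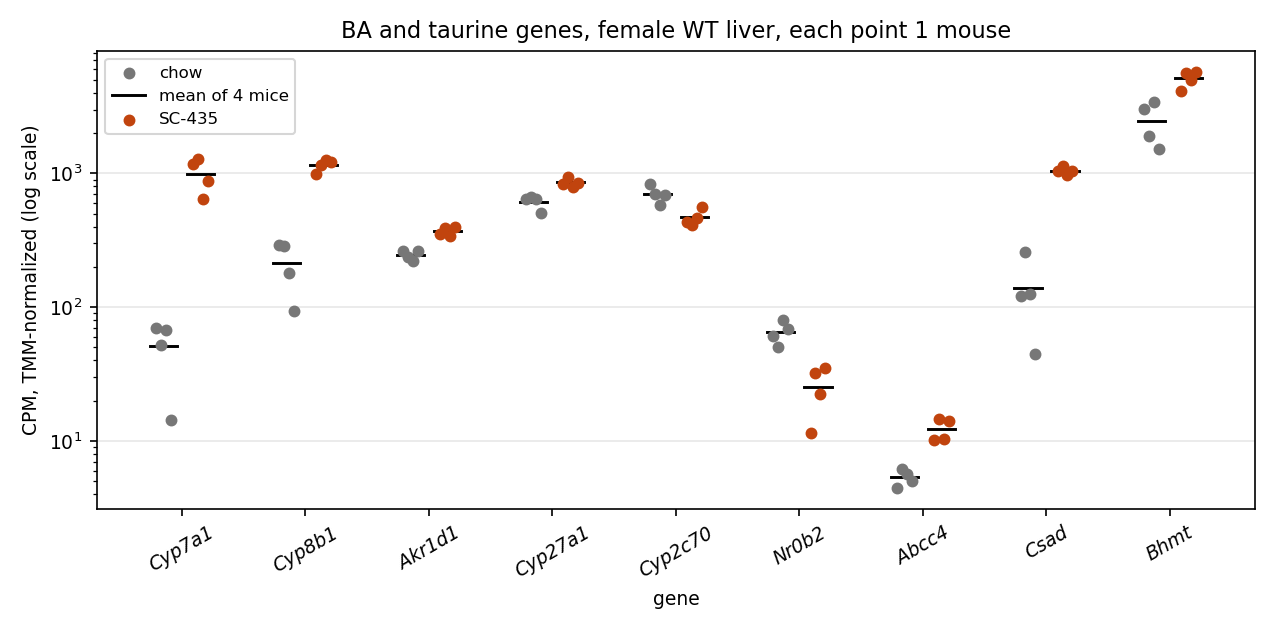
CPM of 9 genes of BA synthesis, BA control, BA transport and taurine supply on a log axis, with each point 1 female WT mouse on chow (grey) or SC-435 (red) and black lines for the means of 4 mice. For *Cyp7a1*, *Cyp8b1* and *Csad* all 4 treated mice lie well above all 4 controls, and for *Nr0b2* and *Cyp2c70* all 4 lie below.

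The promoter of *Cyp8b1* is shown because the gene is a known target of LRH-1, a nuclear receptor whose action SHP blocks. The 250 bases before its RefSeq start (GRCm38.p6, minus strand, chr9:121916306-121916555) hold 1 match to the LRH-1-like word CAAGGNCA, given in capitals, which begins 60 bases before the start:

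*Cyp8b1*: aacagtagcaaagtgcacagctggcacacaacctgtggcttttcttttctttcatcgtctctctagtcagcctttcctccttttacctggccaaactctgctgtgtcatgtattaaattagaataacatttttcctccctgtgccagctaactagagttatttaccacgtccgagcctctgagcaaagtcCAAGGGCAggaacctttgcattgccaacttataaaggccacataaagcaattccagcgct

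Searched on both strands, this word occurred in 5.53% of the 32851 mouse promoter windows of the same length, and in at least 1 window of 6.33% of all genes with windows. Among the 13 BA synthesis genes with a RefSeq window, 2 held it, *Cyp8b1* and *Akr1c6*. *Nr5a2*, which encodes LRH-1, was at 66.3 to 88.8 CPM on chow and at 61.5 to 71.5 CPM on SC-435 (log2 fold change -0.11, adjusted p = 0.603).

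Among the genes that act on BAs after their synthesis, *Cyp2c70* fell and the conjugating enzymes did not pass with edgeR. *Cyp2c70*, the enzyme that makes muricholic acids and the gene disrupted in the KO mice, was at 835, 702, 584 and 691 CPM on chow and at 433, 411, 466 and 566 CPM on SC-435. All 8 mice expressed it, and the treated mice were below the controls without overlap (703 ± 103 against 469 ± 68.5 CPM, SD, n = 4 each). The log2 fold change was -0.58 (SE 0.13, adjusted p = 0.0382) and kept its call without 2 of the 8 libraries (highest adjusted p 0.103). Of the 7 genes for conjugation and hydroxylation, whose median was -0.21, edgeR called it alone, voom called 1 gene and DESeq2 2. *Slc27a5*, the BA-CoA ligase, had a log2 fold change of 0.11 (adjusted p = 0.481), and *Baat*, which joins BAs to taurine, one of 0.26 (adjusted p = 0.117 with edgeR and 0.0411 with DESeq2). *Cyp2a12*, the BA 7-hydroxylase of mouse liver, stood at 732 ± 38.9 and 636 ± 45.5 CPM (log2 fold change -0.20, adjusted p = 0.205).

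Among genes that supply taurine and sulfur amino acids, 13 were tested, 5 rose and 1 fell, with a median log2 fold change of 0.40. *Csad*, which encodes cysteine sulfinate decarboxylase of taurine synthesis, was at 121, 259.8, 126 and 44.6 CPM on chow and at 1041, 1138, 966 and 1035 CPM on SC-435. The treated mice were tightly grouped at a level the controls did not approach. The log2 fold change was 2.92 (SE 0.42, adjusted p = 0.00849), and it held without each library in turn. *Bhmt*, which remethylates homocysteine, rose by 1.05 (adjusted p = 0.039), *Got1*, the cytosolic aspartate aminotransferase, by 0.89 (adjusted p = 0.0384), *Cth*, which makes cysteine, by 0.86 (adjusted p = 0.0424) and *Mat1a*, the liver methionine adenosyltransferase, by 0.53 (adjusted p = 0.0166), all on the log2 scale. *Gclc*, the first enzyme of glutathione synthesis, fell by 0.61 on that scale (adjusted p = 0.00724). *Bhmt*, *Got1* and *Cth* lost the call in most fits that left out 1 library, with adjusted p up to 0.116, 0.105 and 0.111.

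In the FXR, SHP and FGF receptor list, 1 of 12 genes passed with edgeR, and 2 each with DESeq2 and voom. *Nr0b2*, which encodes SHP, was at 60.6, 50.2, 80.1 and 68.2 CPM on chow and at 11.5, 32.1, 22.3 and 35.0 CPM on SC-435, so the lowest control was above the highest treated mouse. Its log2 fold change was -1.36 (SE 0.30, adjusted p = 0.0345), and without 1 library the adjusted p reached 0.103, with the call kept in 1 of 8 fits. *Nr1h4*, which encodes FXR itself, had a log2 fold change of 0.35 (adjusted p = 0.0699). The receptor genes *Fgfr4* and *Klb* had values of -0.02 (adjusted p = 0.928) and 0.17 (adjusted p = 0.531).

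Of 15 BA and lipid transporter genes tested, *Abcc4* alone passed with edgeR, and 2 genes each with DESeq2 and voom. *Abcc4*, which encodes a basolateral exporter, was at 4.46, 6.22, 5.67 and 5.05 CPM on chow and at 10.2, 14.6, 10.3 and 14.0 CPM on SC-435. Its log2 fold change of 1.20 (SE 0.16, adjusted p = 0.00599) held without each library in turn. *Slc10a1*, the main hepatic uptake carrier for conjugated BAs, was at 626 ± 111 and 704 ± 53.6 CPM (log2 fold change 0.17, adjusted p = 0.487). *Abcb11*, the bile salt export pump, was at 892 ± 72.9 and 895 ± 48.0 CPM (log2 fold change 0.01, SE 0.09, adjusted p = 0.983).

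The cholesterol synthesis genes moved in 1 direction. All 20 were tested and had an unadjusted p under 0.05, the log2 fold change was above 0 for each of them, from 0.33 to 1.55, and its median was 0.95. An adjusted p under 0.05 was reached by 9, *Msmo1*, *Hmgcs1*, *Nsdhl*, *Dhcr7*, *Fdft1*, *Mvk* and *Acat2* among them, with 0 lower, and in 17 of the 20 the 4 treated mice were above the 4 controls without overlap. Over all genes tested, 13.5% did not overlap in either direction, and 3114 of 15739 had an unadjusted p under 0.05. The count of 9 depended on single mice. It was 2 without any of the SC-435 replicates or without chow replicate 2, 3 without chow replicate 1, 15 without chow replicate 3 and 10 without chow replicate 4.

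*Hmgcs1*, which encodes the cytosolic HMG-CoA synthase, was at 375, 522, 927 and 229.8 CPM on chow and at 1204, 1487, 1436 and 1615 CPM on SC-435 (log2 fold change 1.48, SE 0.35, adjusted p = 0.0435, and up to 0.121 without 1 library). *Msmo1*, which removes the C4 methyl groups, was at 182, 198, 311 and 119 CPM on chow and at 521, 592, 551 and 701 CPM on SC-435. Its log2 fold change of 1.55 (SE 0.25, adjusted p = 0.0121) held without each library in turn. For both genes chow replicate 3 was the highest control and chow replicate 4 the lowest. *Nsdhl*, which acts with *Msmo1* on the sterol ring, went from 76.9 ± 30.9 to 170.3 ± 13.0 CPM (log2 fold change 1.15, adjusted p = 0.0254). *Hsd17b7*, the 3-ketosteroid reductase of the same step, stood at 109 ± 52.2 and 216 ± 20.04 CPM (log2 fold change 0.98, adjusted p = 0.0826), and *Sqle*, squalene epoxidase, had a log2 fold change of 0.85 (adjusted p = 0.149).

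**Figure D2:**
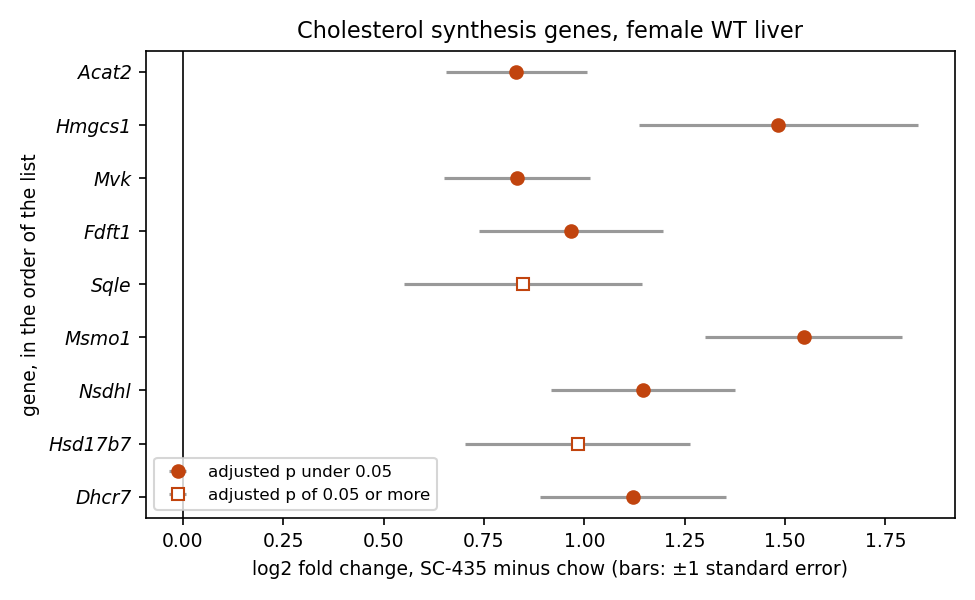
Log2 fold change, SC-435 minus chow, of 9 of the 20 cholesterol synthesis genes, those named in the text, in female WT liver, with bars of 1 standard error to each side. All 9 points lie to the right of 0, from 0.83 to 1.55, and the 7 filled circles mark an adjusted p under 0.05.

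A pair of promoters from this pathway is shown because the log2 fold changes of its genes had 1 direction and SREBP2 is known to act with the factor NF-Y at such sites. The 250 bases before the RefSeq starts of *Hmgcs1* (GRCm38.p6, plus strand, chr13:119690101-119690350) and *Nsdhl* (plus strand, chrX:72918271-72918520) were searched on both strands for the sterol-response-like word TCACNCCAC and the NF-Y word CCAAT, and the matches are in capitals:

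*Hmgcs1*: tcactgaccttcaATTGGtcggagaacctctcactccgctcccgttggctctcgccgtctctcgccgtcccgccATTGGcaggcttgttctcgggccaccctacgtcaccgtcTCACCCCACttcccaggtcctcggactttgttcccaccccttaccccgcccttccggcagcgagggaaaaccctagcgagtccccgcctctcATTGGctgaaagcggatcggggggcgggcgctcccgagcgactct

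*Nsdhl*: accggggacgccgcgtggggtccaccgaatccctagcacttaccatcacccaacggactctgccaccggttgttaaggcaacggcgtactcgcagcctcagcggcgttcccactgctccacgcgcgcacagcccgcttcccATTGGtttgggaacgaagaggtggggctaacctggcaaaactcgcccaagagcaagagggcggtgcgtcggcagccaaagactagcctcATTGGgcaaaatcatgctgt

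The *Hmgcs1* window held 1 sterol-response-like match, which begins 137 bases before the start, and 3 NF-Y matches, all on the opposite strand. The *Nsdhl* window held 2 NF-Y matches, likewise on the opposite strand. Of the 15 genes of the list with a RefSeq window, 14 held at least 1 NF-Y word, against 37.5% of all genes with windows and 6 of the 13 BA synthesis genes. The sterol-response-like word was found in 1 of the 15 and in 1.22% of all genes.

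Of 14 genes that control SREBP2 or follow it outside the synthetic pathway, 5 rose and 1 fell, with a median log2 fold change of 0.30. *Rdh11*, a retinol dehydrogenase known as an SREBP target, rose from 81.5 ± 22.8 to 208 ± 24.6 CPM (log2 fold change 1.36, adjusted p = 0.00736), and *Tmem97*, the sigma-2 receptor, from 70.6 ± 8.92 to 128 ± 15.6 CPM (0.86, adjusted p = 0.00599). Both held without each library in turn. *Srebf2*, which encodes SREBP2, rose by 0.54 (adjusted p = 0.0396) and *Scap*, the SREBP escort protein, by 0.46 (adjusted p = 0.044), while *Insig2*, which retains SREBP in the endoplasmic reticulum, fell by 0.53 (adjusted p = 0.0317), all on the log2 scale. Without 1 library, *Srebf2* kept the call in 1 of 8 fits, and *Insig2* in 0.

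Among 11 targets of LXR, the oxysterol receptor that drives sterol export, *Srebf1* alone passed with edgeR, and DESeq2 called 3 genes and voom 2. *Srebf1*, which encodes the SREBP1 factor of lipogenesis, was at 390.5, 292, 260.1 and 407 CPM on chow and at 215, 214, 215 and 229 CPM on SC-435. The treated mice were nearly identical and lay below each control (log2 fold change -0.63, SE 0.14, adjusted p = 0.0353, and up to 0.101 without 1 library). *Abcg5* and *Abcg8*, which form the sterol exporter of the bile canaliculus, had log2 fold changes of -0.46 (adjusted p = 0.14) and -0.35 (adjusted p = 0.439) with edgeR.

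Of 21 genes of fatty acid and triglyceride synthesis, 4 rose and 0 fell, around a median log2 fold change of 0.18. *Elovl3*, which elongates saturated very long chain fatty acids, was at 9.04, 15.2, 10.8 and 7.60 CPM on chow and at 45.8, 37.8, 54.4 and 41.5 CPM on SC-435 (log2 fold change 2.07, SE 0.20, adjusted p = 0.00196). *Acss2*, which makes cytosolic acetyl-CoA from acetate, was at 205, 150.5, 232 and 113 CPM on chow and at 419.9, 573, 558 and 618 CPM on SC-435 (log2 fold change 1.63, SE 0.21, adjusted p = 0.00599). In both genes every treated mouse exceeded every control. *Acacb*, an acetyl-CoA carboxylase, rose by 0.73 (adjusted p = 0.00736) and *Me1*, malic enzyme, by 0.59 (adjusted p = 0.0206) on the log2 scale. *Elovl3*, *Acss2* and *Acacb* held without each library in turn, and *Me1* in 5 of 8 fits. With the 4 female groups in 1 fit, 1 of these 4 genes passed. The central genes *Fasn*, fatty acid synthase, and *Scd1*, the stearoyl-CoA desaturase, had log2 fold changes of 0.24 (adjusted p = 0.375) and 0.85 (adjusted p = 0.136).

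In the PPARalpha and fatty acid oxidation list, 0 of 24 genes rose and 3 fell, with a median of -0.13. *Fabp1*, the liver fatty acid binding protein, was at 2467, 2318, 3310.4 and 2727 CPM on chow and at 1294, 1029, 1462 and 1564 CPM on SC-435, below each control in each treated mouse (log2 fold change -1.02, SE 0.15, adjusted p = 0.00999). *Bdh1*, a ketone body enzyme, fell by 0.53 (adjusted p = 0.0254) and *Acaa2*, the mitochondrial thiolase, by 0.31 (adjusted p = 0.0488) on the log2 scale. *Fabp1* held without each library in turn, *Bdh1* in 2 of 8 fits and *Acaa2* in 0. The count of 3 fell to 1 without any library but chow replicate 1 or SC-435 replicate 3, for each of which it was 2. *Ppara* itself and *Cpt1a*, the carnitine palmitoyltransferase that admits fatty acids to mitochondria, had log2 fold changes of 0.01 (adjusted p = 0.992) and 0.33 (adjusted p = 0.382). None of 15 glucose and glycogen genes and none of 19 apolipoprotein and lipoprotein genes passed with edgeR. At an unadjusted p under 0.05 there were 2 and 3, beside 3114 of all 15739 genes tested. DESeq2 and voom each called 1 in either list. The smallest p value of the glucose and glycogen list belonged to *Khk*, ketohexokinase (log2 fold change -0.48, adjusted p = 0.0729).

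Genes of xenobiotic and BA detoxification were taken family by family. Of 23 Cyp2b, Cyp2c and Cyp3a pathway genes, *Cyp2c39* rose by 0.71 (adjusted p = 0.0117) and *Por*, the reductase that feeds electrons to microsomal P450 enzymes, by 0.69 (adjusted p = 0.0142) on the log2 scale, and 0 fell. Of 16 other P450 genes, *Cyp2a5*, a coumarin hydroxylase, rose from 536 ± 119 to 1113 ± 181 CPM (log2 fold change 1.05, adjusted p = 0.0133), while *Cyp2d26* fell by 0.46 (adjusted p = 0.0344) and *Cyp2f2* by 0.41 (adjusted p = 0.0309). *Cyp2c39*, *Por* and *Cyp2a5* held without each library in turn, whereas *Cyp2d26* and *Cyp2f2* each did so in 1 of 8 fits (adjusted p up to 0.119 and 0.109). With the 4 female groups in 1 fit, *Cyp2c39* lost the call (adjusted p = 0.112). *Cyp2a5* shares much of its sequence with *Cyp2a4*, which had a log2 fold change of -0.82 (adjusted p = 0.102), so reads of the pair may have been assigned to either.

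Of 16 sulfotransferase pathway genes, 4 rose and 0 fell, with a median of 0.62. *Papss2*, which makes the sulfate donor PAPS, rose by 0.67 (adjusted p = 0.0104), *Sult1d1* by 0.66 (adjusted p = 0.0238), *Sult1b1* by 0.48 (adjusted p = 0.0425) and *Sult2a8*, a BA sulfotransferase, by 0.35 (adjusted p = 0.0481), on the log2 scale. *Papss2* held without each library in turn and *Sult1d1* in 4 of 8 fits, while *Sult1b1* and *Sult2a8* each held in 1 of 8 (adjusted p up to 0.133 and 0.151). *Sult2a8* also lost the call with library size only, with no filter on low counts and with the 4 female groups in 1 fit (0.188), and *Sult1b1* with that last fit (0.319). *Sult2a1* was at 18.0, 7.14, 113 and 84.5 CPM on chow and at 115, 241, 178 and 268 CPM on SC-435. The controls ranged over more than 10-fold, and the difference did not pass (log2 fold change 1.85, SE 0.70, adjusted p = 0.18). Its near-identical neighbour *Sult2a2* had a log2 fold change of 1.63 (adjusted p = 0.123), and how reads were divided within the Sult2a cluster is uncertain. Of 17 genes of glucuronidation, *Ugdh*, which makes UDP-glucuronic acid, rose from 108 ± 24.6 to 248 ± 26.2 CPM (log2 fold change 1.20, adjusted p = 0.00599) and *Ugt3a1* by 0.35 (adjusted p = 0.0394), while *Ugt2b35* fell by 0.47 (adjusted p = 0.0238). Of 21 glutathione S-transferase and NRF2 target genes, 4 rose, among them *Gstm4* (0.70, adjusted p = 0.0157) and *Nqo1*, a quinone reductase (0.67, adjusted p = 0.0421), and *Gsta4* fell by 0.81 (adjusted p = 0.0244). *Ugdh* held without each library in turn, and *Gstm4*, *Gsta4*, *Ugt2b35*, *Nqo1* and *Ugt3a1* in 6, 5, 4, 1 and 1 of 8 fits. *Gstm4* and *Ugt3a1* also lost the call with the 4 female groups in 1 fit.

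Several chaperones of the endoplasmic reticulum (ER) fell. Of 17 genes of ER stress and the integrated stress response, 6 fell and 1 rose, and the median log2 fold change was -0.62. *Hspa5*, which encodes the chaperone BiP, was at 1807, 1509, 1535 and 894 CPM on chow and at 812, 732, 606 and 518 CPM on SC-435. Chow replicate 4 was the lowest control and lay just above the highest treated mouse (log2 fold change -1.11, SE 0.21, adjusted p = 0.0218). *Sdf2l1*, a BiP cofactor, was at 101, 80.3, 66.0 and 30.6 CPM on chow and at 31.3, 20.2, 15.3 and 17.1 CPM on SC-435, with chow replicate 4 inside the treated range (log2 fold change -1.73, SE 0.34, adjusted p = 0.0242). *Pdia4*, a protein disulfide isomerase, also overlapped at that mouse (363 ± 78.9 against 214 ± 25.7 CPM, log2 fold change -0.76, adjusted p = 0.0309). *Dnajb9*, *Xbp1* and *Hsp90b1* fell by 0.73 (adjusted p = 0.0468), 0.73 (adjusted p = 0.0152) and 0.62 (adjusted p = 0.0355) on the log2 scale. *Hspa5* and *Sdf2l1* each kept the call in 3 of 8 fits without 1 library, with adjusted p up to 0.0772 and 0.0898, and *Pdia4* in 2 of 8 (up to 0.107). The 12 pancreatic acinar markers, genes of a secretory cell rich in ER, were summed in each mouse. Over chow replicates 1 to 4 the sum was 63.1, 31.1, 17.1 and 14.3 CPM, most of it from *Cela1*. *Sdf2l1* ran in that order over these mice, and *Hspa5* did so except for replicates 2 and 3, at 1509 and 1535 CPM. In SC-435 replicates 1 to 4 the sum was 8.63, 8.002, 8.78 and 10.03 CPM, an order that neither gene shared. Of these markers, *Amy2a5* was at 0 in all 8 mice and each of the others had reads. The lowest chow sum was above the highest SC-435 sum, so diet and acinar RNA cannot be told apart in these mice. The part of these cells in the chaperone values was not tested.

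The genes of the integrated stress response in that list gave other values. *Asns*, asparagine synthetase and a target of ATF4, was at 0.979, 1.08, 0.363 and 0.381 CPM on chow and at 3.44, 9.46, 5.86 and 7.86 CPM on SC-435. It rose by 3.24 on the log2 scale (SE 0.42, adjusted p = 0.00581), without overlap and without losing the call when any library was left out. *Atf4* itself had a log2 fold change of 0.02 (SE 0.08, adjusted p = 0.928), and its targets *Ddit3* and *Trib3* had values of -0.52 (adjusted p = 0.215) and 0.35 (adjusted p = 0.638).

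**Figure D3:**
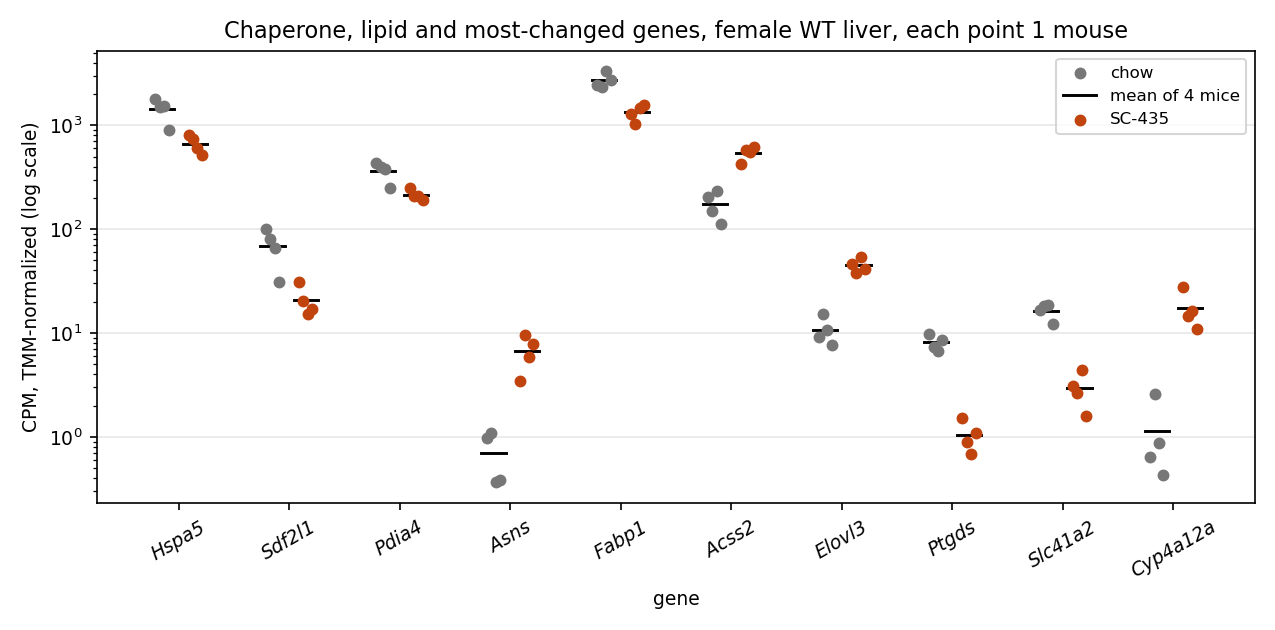
CPM of 10 genes on a log axis in each female WT mouse on chow (grey) or SC-435 (red), with black lines for the means of 4 mice. The ER chaperone genes *Hspa5*, *Sdf2l1* and *Pdia4* are lower in the treated mice with chow replicate 4 nearest to them, and *Asns*, *Acss2*, *Elovl3* and *Cyp4a12a* are higher without overlap.

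Immune genes were taken in 3 lists. Of 22 interferon-stimulated genes, 5 rose and 0 fell, with a median of 0.30. *Ifit1* rose from 9.02 ± 0.899 to 17.3 ± 3.67 CPM (log2 fold change 0.94, adjusted p = 0.0117), *Gbp3* by 0.87 (adjusted p = 0.02), *Irf7*, the transcription factor that amplifies interferon expression, by 0.77 (adjusted p = 0.0295), *Usp18* by 0.76 (adjusted p = 0.0154) and *Ifit3* by 0.62 (adjusted p = 0.0493), on the log2 scale. *Ifit1* held without each library in turn, and *Usp18*, *Gbp3* and *Irf7* in 7, 4 and 2 of 8 fits. None of the 15 cytokine and chemokine genes tested passed with edgeR, DESeq2 or voom (3 at an unadjusted p under 0.05), with *Tgfb1* and *Ccl2* nearest (log2 fold changes -0.27 and -0.75, adjusted p = 0.22 and 0.224). Of 23 acute phase genes, *Itih4* fell by 0.38 (adjusted p = 0.0384, and up to 0.134 without 1 library) and 0 rose. That is 4.35% of the list, beside 2.40% higher and 1.88% lower over all genes tested. None of 22 cell cycle genes, 23 collagen and matrix genes and 19 circadian clock genes passed with edgeR. Their medians were -0.43, -0.27 and 0.06, and the log2 fold change was below 0 for 20, 22 and 7 of them. An unadjusted p under 0.05 was found for 2, 5 and 2, beside 3114 of all 15739 genes tested. DESeq2 called 1, 0 and 1 of them, and voom 0, 0 and 1. *Per2* and *Cry1*, a pair of clock repressors, had log2 fold changes of -0.88 (adjusted p = 0.108) and -1.11 (adjusted p = 0.117), and the time of day at which each mouse was killed is not given in the sources used here.

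Hepatocytes near the central vein and near the portal tract express different enzymes. Of 15 pericentral genes, 5 rose and 0 fell. *Oat*, ornithine aminotransferase, rose from 1075 ± 372 to 2542 ± 271 CPM (log2 fold change 1.24, adjusted p = 0.0153), *Rhbg*, an ammonium transporter, by 1.16 (adjusted p = 0.00963), *Slc1a2*, a glutamate transporter, by 0.62 (adjusted p = 0.00724) and *Aldh1a1*, a retinaldehyde dehydrogenase, by 0.54 (adjusted p = 0.0345), on the log2 scale. The other was *Cyp7a1*. Of 15 periportal genes, 3 fell and 1 rose. *Ctsc*, cathepsin C, fell by 0.73 (adjusted p = 0.0125), *Hsd17b13*, a lipid droplet enzyme, by 0.69 (adjusted p = 0.00676) and *Cyp2f2* by the value above, and *Cps1*, which starts the urea cycle, rose by 0.44 (adjusted p = 0.038). *Rhbg*, *Slc1a2* and *Hsd17b13* held without each library in turn, *Oat* and *Ctsc* in 7 of 8 fits and *Cps1* in 1 (adjusted p up to 0.101).

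Genes known to differ between male and female mouse liver were examined because all 8 mice were female. Of 23 male-biased genes tested, 4 rose and 1 fell. *Cyp4a12a*, a fatty acid omega-hydroxylase, was at 0.644, 2.58, 0.872 and 0.429 CPM on chow and at 27.9, 14.6, 16.4 and 11.0 CPM on SC-435, a rise of 3.94 on the log2 scale (SE 0.50, adjusted p = 0.00581). Its close copy *Cyp4a12b* rose by 3.51 (adjusted p = 0.0153), and reads shared by the pair cannot be separated here. *Hsd3b5*, a 3-ketosteroid reductase, went the other way, from 9.76, 29.0, 1.02 and 1.55 CPM on chow to 0.424, 0.121, 0.121 and 0.112 CPM on SC-435 (log2 fold change -5.71, SE 1.18, adjusted p = 0.0288). The controls of *Hsd3b5* differed by more than 20-fold among themselves, and 3 reads correspond to 0.067 to 0.0773 CPM, so the treated values rest on few reads. The call for *Hsd3b5* was lost without any of the 4 SC-435 replicates (adjusted p up to 0.102) and with voom (0.197). Without chow replicate 2 its log2 fold change was -4.38, and without SC-435 replicate 1 it was -6.42. Of 25 female-biased genes, 2 fell and 1 rose. *Hao2*, a peroxisomal hydroxy acid oxidase, fell from 14.3 ± 6.08 to 2.39 ± 1.29 CPM (log2 fold change -2.58, adjusted p = 0.0146) and *Prom1* by 1.18 (adjusted p = 0.0153), while *Atp6v0d2*, a proton pump subunit, rose by 1.81 (adjusted p = 0.0175). *Cyp4a12a*, *Hao2* and *Prom1* held without each library in turn, and *Atp6v0d2* in 7 of 8 fits.

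The 10 protein-coding genes with the largest rises, among those with a mean of at least 50 counts, both thresholds passed and no overlap, were *Cyp7a1*, *Cyp4a12a*, *Asns*, *Csad*, *Egr1*, *9130409I23Rik*, *Cyp8b1*, *Usp50*, *Mt1* and *Nfe2*. *Egr1*, an immediate early transcription factor, was at 5.77, 17.1, 12.0 and 8.17 CPM on chow and at 21.8, 44.9, 74.5 and 134 CPM on SC-435, a wide spread within the treated group (log2 fold change 2.68, SE 0.53, adjusted p = 0.0242). *Mt1*, metallothionein 1, was at 127, 65.2, 133 and 30.01 CPM on chow and at 212, 436, 501 and 454 CPM on SC-435 (log2 fold change 2.17, adjusted p = 0.0268). *9130409I23Rik* rose by 2.52 (adjusted p = 0.00411), *Usp50* by 2.26 (adjusted p = 0.0338) and *Nfe2*, a hematopoietic transcription factor, by 2.08 (adjusted p = 0.0488) on the log2 scale, and of these 3 the first alone held without each library. *Egr1* and *Mt1* each held in 4 of 8 fits, with adjusted p up to 0.0616 and 0.0833.

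The 10 largest falls by the same rule were *Hsd3b5*, *Serpina9*, *Ptgds*, *Hao2*, *Prok1*, *Slc41a2*, *Cish*, *Rad51b*, *Cela1* and *Hsd17b6*. *Ptgds*, a prostaglandin D2 synthase, was at 9.84, 7.37, 6.73 and 8.55 CPM on chow and at 1.53, 0.897, 0.675 and 1.09 CPM on SC-435. It had the smallest adjusted p of all genes tested (log2 fold change -2.95, SE 0.23, adjusted p = 0.00179). *Slc41a2*, a magnesium transporter, was at 16.7, 18.1, 18.6 and 12.2 CPM on chow and at 3.11, 2.62, 4.39 and 1.59 CPM on SC-435 (log2 fold change -2.49, SE 0.27, adjusted p = 0.00291). *Cish*, a STAT5-induced inhibitor of cytokine and growth hormone signalling, was at 10.6, 21.2, 18.3 and 39.1 CPM on chow and at 5.35, 5.14, 4.22 and 1.68 CPM on SC-435 (log2 fold change -2.45, SE 0.43, adjusted p = 0.0161). In all 3 genes the highest treated mouse lay below the lowest control. *Hsd17b6*, a steroid and retinol dehydrogenase, fell by 1.80 (adjusted p = 0.0117), *Rad51b*, a recombination factor, by 2.39 (adjusted p = 0.0117), *Serpina9* by 4.07 (adjusted p = 0.0162) and *Prok1* by 2.51 (adjusted p = 0.0488), on the log2 scale. *Ptgds*, *Slc41a2*, *Hao2*, *Rad51b* and *Hsd17b6* held without each library in turn, *Serpina9* and *Cish* in 7 of 8 fits and *Prok1* in 2.

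Markers of the cell types that a liver sample can hold were compared to see which cells the RNA came from. The 11 hepatocyte markers summed to 109275 to 135301 CPM on chow and 94034 to 111945 CPM on SC-435. Of the 11, edgeR called 1, which was higher (*Cps1*), and DESeq2 and voom called 2 each. The log2 fold change was below 0 for 9 of the 11, with a median of -0.14. The macrophage and Kupffer list (553 to 661 CPM on chow, 561 to 693 CPM on SC-435) and the endothelial list (600.4 to 682 and 617 to 705 CPM) had 0 of 17 and 0 of 12 genes past the adjusted p of edgeR, DESeq2 or voom, and 0 at an unadjusted p under 0.05. Cholangiocyte markers summed to 109.7 to 148 CPM on chow and 95.9 to 109 CPM on SC-435, with 0 of 11 past it (4 at an unadjusted p under 0.05, 2 with DESeq2, 0 with voom). Their median log2 fold change was -0.46, and 10 of the 11 were below 0. Their cytokeratin gene *Krt19* had a log2 fold change of -0.76 (adjusted p = 0.0935). Of the stellate, neutrophil, T and NK cell, B cell, erythroid and muscle lists, 12 of 12, 2 of 12, 11 of 15, 11 of 11, 6 of 10 and 1 of 9 genes could be tested. They also had 0 genes past the adjusted p of edgeR, with 3, 0, 0, 1, 1 and 0 at an unadjusted p under 0.05. Over all 15739 genes tested, 3114 were under that unadjusted p. DESeq2 called 2 stellate genes and voom 0, and neither called a gene of the other lists. *Myh4* and *Mb* of the muscle list had no read.

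Each of the other 3 lists had 1 gene past it. *Cela1*, an elastase of the pancreatic acinar list, fell from 59.2, 30.4, 16.6 and 14.0 CPM on chow to 8.09, 7.11, 7.55 and 9.14 CPM on SC-435 (log2 fold change -1.91, adjusted p = 0.0308, and up to 0.0898 without 1 library). Of the 12 acinar markers, 2 had enough reads to be tested, and the one besides *Cela1*, *Cela2a*, had a log2 fold change of 0.44 and did not pass. *Amy2a5* had no read in any mouse. For each of the other untested markers the highest count was in a chow mouse, for *Ctrb1* 35 reads against 5 on SC-435. The list summed to 14.3 to 63.1 CPM on chow and 8.002 to 10.03 CPM on SC-435. *Fabp2*, the fatty acid binding protein of the intestinal list, fell from 49.6 ± 7.10 to 23.8 ± 2.70 CPM (log2 fold change -1.06, adjusted p = 0.00387), while *Cdx1* of that list had no read and the list summed to 58.2 to 75.8 CPM on chow and 39.96 to 43.9 CPM on SC-435. *Pparg* of the adipocyte list rose from 9.24 ± 1.23 to 14.5 ± 1.71 CPM (log2 fold change 0.65, adjusted p = 0.0218, and up to 0.0656 without 1 library). *Adipoq*, *Lep*, *Plin1* and *Retn* did not pass the filter on low counts, yet single mice held many of their reads. The highest counts were 116, 2, 149 and 66 on chow and 363, 32, 500 and 212 on SC-435. The adipocyte list summed to 53.4 to 92.6 CPM on chow and to 68.7, 242, 64.1 and 52.02 CPM in SC-435 replicates 1 to 4, so replicate 2 stood apart. The part of these cell types in the results was not tested.

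**Figure D4:**
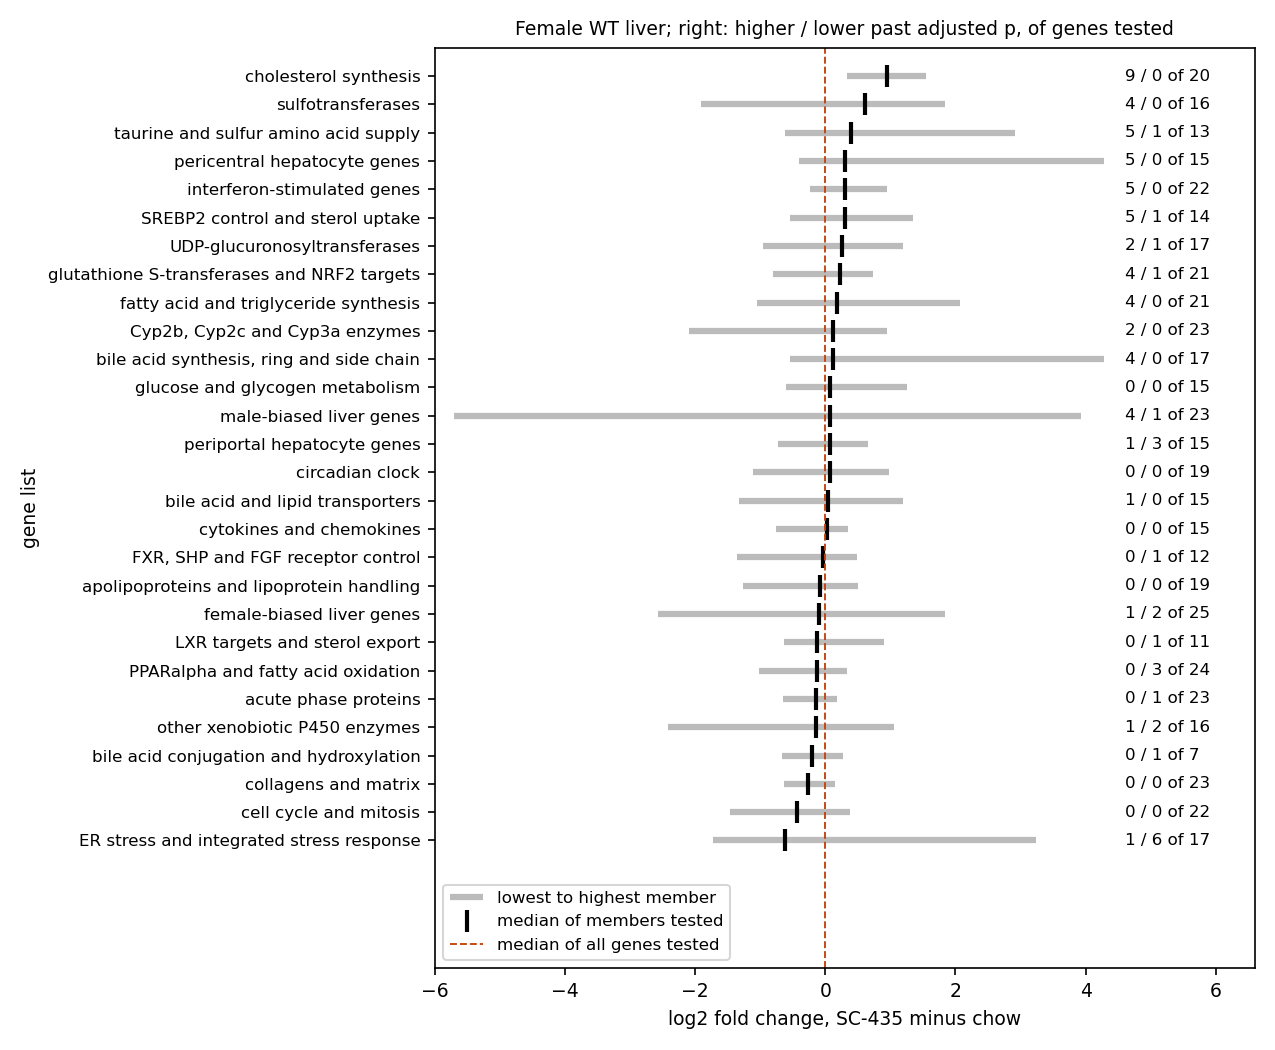
Log2 fold changes, SC-435 minus chow, of 28 gene lists in female WT liver, with grey bars from the lowest to the highest member, black ticks at the median and a dashed line at the median of all genes tested. The numbers on the right give members past the adjusted p, higher and lower, and the cholesterol synthesis list has the highest median (0.95) and the ER and integrated stress response list the lowest (-0.62).

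Whether female WT mice responded differently from male WT mice was tested as an interaction on 16 libraries, with no library shared between the 2 responses. Of 16373 genes, 7 passed (0.0428%), namely *Fam19a2*, *Slc22a27*, *Slc22a26*, *Tcf24*, *Adgrf1*, *Cyp4a12a* and *Adh6-ps1*. Of the male WT libraries on chow, replicate 1 stood apart, with a mean correlation to its group of 0.929 against 0.971 to 0.973 for the others, and without it 15 genes passed. Without any other of the 16 libraries the count was 2 to 6. *Fam19a2*, a secreted chemokine-like protein, rose in females from 6.49, 4.25, 4.75 and 2.45 CPM to 16.7, 19.1, 17.1 and 20.1 CPM (log2 fold change 2.03, adjusted p = 0.00403). The response was larger in males (log2 fold change 6.01), and the difference, female minus male, was -3.99 (SE 0.50, adjusted p = 0.00971, and 0.00782 without that library). *Slc22a27* and *Slc22a26*, a pair of organic anion transporter paralogs, had log2 fold changes of -0.54 and -0.20 in females and of 2.67 and 3.04 in males (adjusted p of the difference 0.0133 and 0.0187, and 0.00782 for both without that library). Neither gene passed with edgeR within females (adjusted p = 0.0601 and 0.637) or within males (adjusted p = 0.164 and 0.124). *Cyp4a12a* had a log2 fold change of -0.30 in males, which turned to 0.20 without male chow replicate 1. The difference was 4.22 (adjusted p = 0.0357), and 3.74 (adjusted p = 0.0161) without that library. *Cyp7a1* and *Cyp8b1* had log2 fold changes of 2.70 and 1.03 in males, and their differences of 1.58 (SE 0.75) and 1.38 (SE 0.63) did not pass.

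The same test against the response of female *Cyp2c70* KO mice, again with no shared library, called 445 of 16882 genes (2.64%), 300 with the more positive response in WT mice and 145 with the more negative one. The call was shared by 56 of the 674 genes that changed in female WT mice. These 674 were chosen on the same female WT libraries that enter the test, so the overlap is not independent of it. *Fabp1* fell in WT mice and had a log2 fold change of 0.70 in KO mice (difference -1.72, SE 0.27, adjusted p = 0.0141). *Hao2* likewise had -2.58 in WT and 1.59 in KO mice (difference -4.17, SE 0.64, adjusted p = 0.0141), and *Stk10*, a leukocyte kinase, 0.78 and -0.64 (difference 1.42, SE 0.20, adjusted p = 0.0113). *Slc15a3*, a lysosomal peptide transporter, was at 8.79 ± 0.338 and 9.55 ± 0.673 CPM in WT mice, and its log2 fold changes were 0.12 in WT and -1.19 in KO mice (adjusted p of the difference 0.0065). *Fam19a2* rose by 7.04 in KO mice, a difference of -5.01 (SE 0.40, adjusted p = 1.42e-05).

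By list, the KO response differed from the WT response for 10 of 17 macrophage markers, 9 of 22 interferon-stimulated genes, 4 of 16 sulfotransferase genes, 4 of 24 PPARalpha genes and 4 of 20 cholesterol synthesis genes. The median log2 fold change of the macrophage markers was 0.03 in WT and -0.97 in KO mice, that of the interferon list 0.30 and -0.35, and that of cholesterol synthesis 0.95 and 2.57. *Irf7* and *Ifit1*, which rose in WT mice, had log2 fold changes of -0.58 and -0.15 in KO mice (adjusted p of the difference 0.0176 and 0.0333). *Cyp7a1* and *Cyp8b1* had log2 fold changes of 3.45 and 5.0003 in KO mice, and the differences of 0.83 (SE 0.83) and -2.57 (SE 0.87) did not pass (adjusted p = 0.623 and 0.113). The count of 445 moved with single libraries. It was 170, 208, 144 and 258 without WT SC-435 replicates 1 to 4, and 331, 243, 176 and 329 without WT chow replicates 1 to 4. It was 75, 68, 146 and 618 without KO SC-435 replicates 1 to 4, and 350, 99, 197 and 1644 without KO chow replicates 1 to 4.

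**Figure D5:**
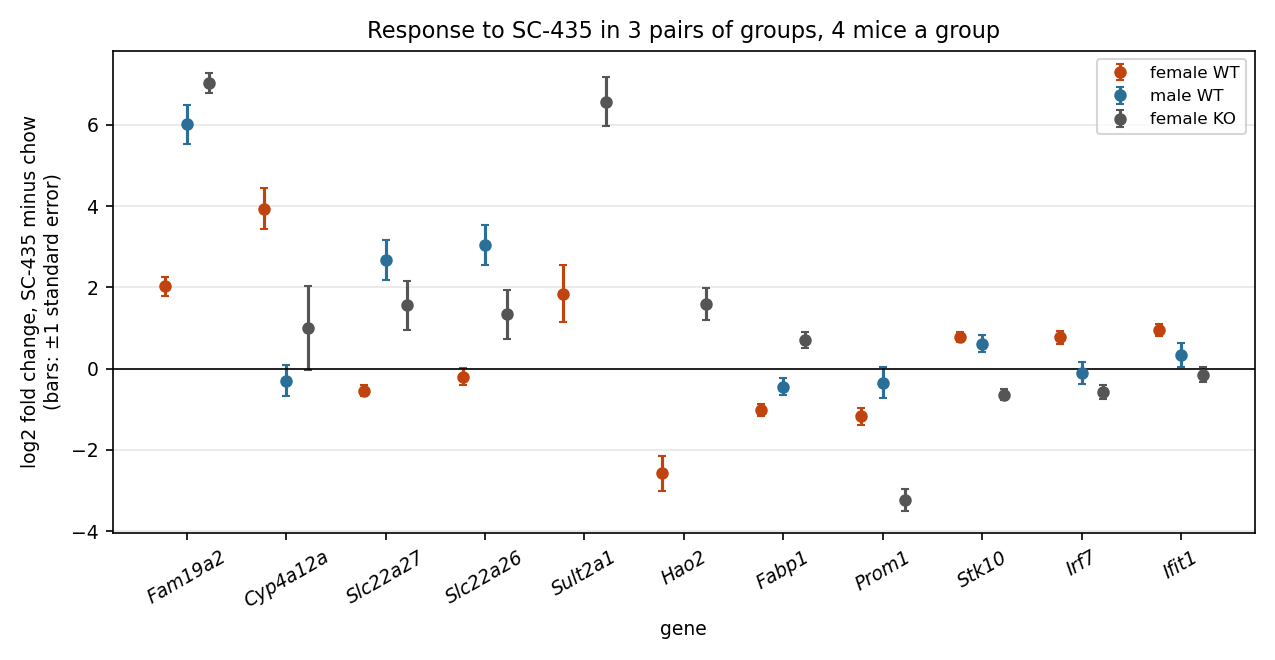
Log2 fold change, SC-435 minus chow, of 11 genes in female WT (red), male WT (blue) and female KO mice (grey), with bars of 1 standard error to each side and 4 mice in each group. *Fam19a2* has its smallest rise in female WT mice, 2.03 against 6.01 and 7.04, and *Hao2* and *Fabp1* lie below 0 in female WT and above 0 in female KO mice. *Sult2a1* and *Hao2* were too low in male WT mice to be tested there.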

How the data were processed

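The authors extracted total RNA from frozen liver with TRIzol, Novogene built the libraries, and an Illumina HiSeq1000 was used for sequencing. Per the labels, the submitters' processing notes name HISAT2 2.0.5, featureCounts 1.5.0-p3, DESeq2 1.20.0, GATK 4.1.1.0 and the mouse build mm10. Whether reads were counted by strand is not given in the sources used here. The deposited values are raw counts of reads per gene, whole numbers without normalization. The table's 32 FPKM columns and 35 columns of the authors' own fold changes and p values were not used.

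Counts were tested with edgeR 4.0.16 in R 4.3.3 (filterByExpr by group, TMM, glmQLFit, glmQLFTest, Benjamini-Hochberg adjustment). Of the genes not tested, 26840 had no read in the 8 libraries and 11953 had too few. The standard error is the size of the log2 fold change divided by the square root of F. Differences between responses were fitted as interactions. Both cutoffs, 0.05 for the adjusted p and 1 for the log2 fold change, follow the study. The scripts were tested on simulated data.

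The comparison and the 41 gene lists were chosen with earlier results of these data known. The genes named are, in each list, those that mark its steps and up to 4 with the largest change that passed with a mean of at least 50 counts (where none passed, the 2 with the smallest p). They are also the 10 largest protein-coding rises and falls without overlap, the 3 smallest adjusted p of each interaction and 8 genes the study names. Some of these are not reported here. Others were named after their values were seen. Replicates are separate libraries by the labels, and within groups the counts differed far beyond sampling noise (lowest chi-square per gene 31.5 over 12 pairs). RefSeq promoter windows of GRCm38.p6 were matched by symbol. Alternatives to the fit were DESeq2 1.42.0, limma 3.58.1 voom with quality weights, scaling by median-of-ratios or by library size alone, 2 other filters, a replicate block, all female or all 8 groups in 1 fit, and leaving out each library. The alternatives for the permutation test of *Cyp7a1* were added after the data were seen.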

Additional observations from a re-analysis of the deposited data

Results flagged for a closer look

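A mouse far from the other 3 of its group (by Dixon's ratio, the gap to the nearest mouse over the group's range) was found in 17 of the 278 groups examined, 2 for each of 139 genes, and chance alone gives about 1 in 20. On chow, single high mice were seen for *Got1* (ratio 0.894), *Cyp2c39* (0.921), *Ccl2* (0.881), *Ighm* (0.888) and *Nr5a2* (0.833), and single low mice for *Cyp27a1* (0.843), *Pparg* (0.850) and *Baat* (0.843). On SC-435, single high mice were seen for *Srebf1* (0.960), *Atp6v0d2* (0.910), *Hsd3b5* (0.969), *Irf7* (0.867), *Mzb1* (0.923) and *Hbb-bt* (0.844), and single low mice for *Acaa2* (0.958), *Hsd17b13* (0.872) and *Cygb* (0.949). For *Srebf1* the high mouse was at 229 CPM with the next at 215 CPM in a narrow group, whereas for *Atp6v0d2* the values were 73.8 and 38.3 CPM.

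The response to SC-435 differed by a test of the difference itself for 16 of the named results, given as log2 fold change in female WT mice minus that in the other mice. Against male WT mice these were *Cyp4a12a* (4.22), *Fam19a2* (-3.99), *Slc22a27* (-3.24) and *Slc22a26* (-3.27). Against female KO mice they were *Fabp1* (-1.72), *Acaa2* (-0.52), *Hao2* (-4.17), *Prom1* (2.06), *Ifit1* (1.10), *Irf7* (1.35), *Cd5l* (1.24), *Csf3r* (1.23), *Fam19a2* (-5.01), *Slc15a3* (1.31), *Stk10* (1.42) and *Sult2a1* (-4.72). Some of these also differed in level on chow, as *Prom1* did, at 2.97 CPM in WT and 46.0 CPM in KO females (scaled over 32 libraries).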

How the results depend on the processing

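Median-of-ratios size factors left every count within 1.5 times its value. DESeq2 gave 761 genes higher and 659 lower at the adjusted p, 102 lower past both thresholds, 15 cholesterol synthesis genes, 1 gene of fatty acid synthesis lower, 39 genes for the sex difference and 1205 for the genotype difference. Voom gave 656 higher, 545 lower, 212 and 1881. With no filter, 15 cholesterol synthesis genes were higher and 1 of fatty acid synthesis lower. Library size only gave 947 for the genotype difference. The 4 female groups in 1 fit gave 1 fatty acid synthesis gene higher, and the 8 groups in 1 fit gave 3 and 18 for the differences. With the replicate block, 191 genes were higher and 184 lower, 4 cholesterol synthesis genes passed, and 1 and 2 genes passed for the differences. Same-numbered mice correlated by -0.064, 0.028, -0.079 and 0.11 and none best with its own number. Whether mice of the same number shared handling is not given in the sources used here, and these correlations cannot decide it.

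Without 1 library, genes past both thresholds ran from 47 to 102 higher and 21 to 69 lower, and at the adjusted p from 95 to 454 and 64 to 320. List counts ran from 2 to 15 for cholesterol synthesis, 3 to 4 for BA synthesis, 3 to 4 for fatty acid synthesis and 1 to 2 lower for PPARalpha. The sex difference ran from 2 to 15. For *Cyp7a1* the difference of means ran from 845 to 1056 CPM, always with p = 0.0571, the smallest that 3 against 4 mice allow in the exact permutation test. The genotype difference ran from 68 to 1644.

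Of the 82 genes chosen for naming that passed, 30 passed in every alternative and without each library. Of the 57 that did not, 18 passed in at least 1. None of the 82 changed direction in any of these fits. Fits with fewer mice have fewer degrees of freedom. At this depth, genes of few reads such as *Hsd3b5* are the least certain.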

Other observations

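The genes in this section were chosen after their values were seen. *Manf* fell from 162 ± 51.6 to 59.7 ± 13.7 CPM (SD, n = 4 each, log2 fold change -1.44, adjusted p = 0.0156 from edgeR), *Hyou1* from 408 ± 107 to 155 ± 43.8 CPM (-1.40, adjusted p = 0.0153) and *Syvn1*, a ubiquitin ligase of ER-associated degradation, by 1.12 on the log2 scale (adjusted p = 0.0288). *Creld2*, which is in the list, had -1.59 (adjusted p = 0.0638).

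*Spry4*, a feedback inhibitor of growth factor signalling, fell from 16.8 ± 5.05 to 6.49 ± 1.87 CPM (log2 fold change -1.37, adjusted p = 0.0203), *Spred1* from 26.7 ± 4.41 to 12.1 ± 1.48 CPM (-1.14, adjusted p = 0.00416) and *Etv5* from 8.77 ± 0.842 to 4.36 ± 0.580 CPM (-1.01, adjusted p = 0.00495), each without overlap. *Upp2*, a uridine phosphorylase, rose from 133 ± 27.2 to 424 ± 66.8 CPM (1.67, adjusted p = 0.00184), *Acmsd* of tryptophan catabolism by 1.75 (adjusted p = 0.00599) and *Slc22a3*, an organic cation transporter, by 1.39 (adjusted p = 0.00184). *Slc30a10*, a manganese exporter, fell by 1.07 (adjusted p = 0.00416).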
